A study of Mus musculus with 8 samples.

Results

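The gastrocnemius of Eif6 heterozygous mice was compared with that of wild type (WT) littermates on 4 of the 8 arrays of the series, those titled as gastrocnemius pairs 1 to 4. The other 4 arrays hold tibialis anterior (TA). All mice were male C57BL6, 8 to 16 weeks old, and were either heterozygous for Eif6 (Eif6+/-) or WT. Each 2-colour array was labelled as a pair, with Eif6+/- RNA in Cy5 and WT RNA in Cy3. The mutant allele is not described in the sources used here, and the model is a heterozygous mouse, not one in which muscle alone was changed. The dyes were not swapped on any array, so within the muscle a preference of a probe for one dye and a change with genotype cannot be told apart.

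eIF6 is a factor that binds the large (60S) ribosomal subunit and keeps it from joining the small subunit until it is released. It takes part in the making of 60S subunits in the nucleolus and acts on translation in the cytoplasm. Gastrocnemius is a mixed limb muscle made mostly of fast fibres, with some slow fibres, and whole muscle RNA also holds that of connective tissue, vessel, nerve, fat and immune cells.

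The Eif6+/- channels of pairs 1 and 4 were nearly alike. Over 500 probes that varied most in the other channel, the log2 signals of these 2 channels differed with an SD of 0.194, whereas the other 5 comparisons among the Eif6+/- channels gave SDs from 0.435 to 0.627. The WT channels of the same 2 arrays differed with an SD of 0.837, and all WT comparisons lay between 0.577 and 0.837. At the level of single spots, the Eif6+/- channels of pairs 1 and 4 differed with an SD of 0.103, less than the 0.166 to 0.185 between 2 spots of one probe on one gastrocnemius array. In TA the Eif6+/- channels of pairs 1 and 4 were alike in the same way (SD 0.188, against 0.448 to 0.650 for the others). By their single spots these 2 channels differed by less than the sampling noise, here that between spots of a probe, and were counted as 1 sample in the added fit described below, although the labels name 4 pairs. Over the 500 variable probes their SD of 0.194 was above that noise. The sources used here do not say whether one RNA was placed on both arrays. Their log2 ratios are not independent if they share one RNA. Gene calls and the counts of most lists are given from the fit over 4 arrays, which was planned before the added fit. They are given again with pairs 1 and 4 averaged (the counted-once fit, 3 values per gene), which was chosen after seeing the data. The lists and their members were chosen with earlier results of these data known. A gene is said to have risen or fallen only where it passed in both fits.

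**Figure D1:**
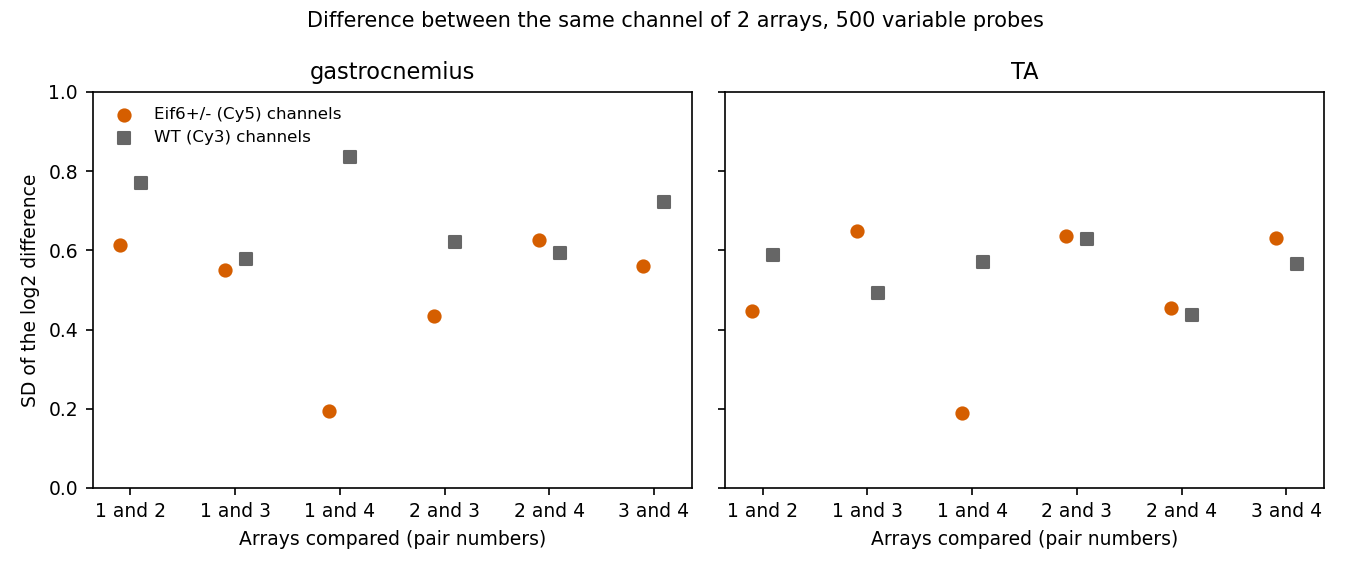
SD of the log2 difference between the same channel of 2 arrays, over 500 probes chosen as the most variable in the other channel, for each combination of arrays (x axis, pair numbers) in gastrocnemius and TA. Circles are Eif6+/- channels and squares WT channels; the Eif6+/- channels of pairs 1 and 4 lie at 0.194 in gastrocnemius and 0.188 in TA, below all other comparisons.

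The labels were checked against marker genes. A list of 15 held 14 genes of skeletal muscle, fast fibres or the hindlimb, all above background, among them Ckm, Acta1, Myh4 and Tcap. It also held the forelimb gene Tbx5, which was not above background. These markers cannot tell gastrocnemius from TA, which is a fast muscle of the hindlimb too. Of 4 Y-linked genes, Ddx3y and Eif2s3y were above background on all arrays, Uty on 1 array in the Eif6+/- channel only and Kdm5d on none, and the female-specific Xist was above background on none. Eif6 had log2 signals of 9.59, 9.75, 9.76 and 9.59 in the Eif6+/- channels of pairs 1 to 4 and of 10.56, 10.90, 10.65 and 10.65 in the WT channels. Every Eif6+/- value lay below every WT value. The log2 ratios were −0.97, −1.15, −0.89 and −1.06, with a mean of −1.02 (SE 0.0762, limma adjusted p = 0.0241; 0.0728 counted once), and the other probe of the gene gave −1.13. Leaving out pair 3 moved the adjusted p to 0.121, and leaving out pair 4 to 0.156. Of the 8 genes on each side of Eif6 on chromosome 2, 10 could be tested and 2 were called over 4 arrays, beside 15.4% of all genes. Cep250 fell (−0.46, adjusted p = 0.0469; 0.0803 counted once). Ergic3 passed over 4 arrays (−0.32, adjusted p = 0.0547) but not counted once (0.101).

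Across all genes, 1941 of 12615 passed an adjusted p under 0.1 over the 4 arrays (15.4%): in Eif6+/- muscle 1244 were higher (9.86%) and 697 lower (5.53%). Counted once, 916 genes passed (7.26%), 563 higher (4.46%) and 353 lower (2.8%), and the smallest adjusted p was 0.0728. Both fits called 903 genes, 558 higher and 345 lower, and 890 of these had the same sign on all 4 arrays. The number of calls changed with single arrays: limma called 0 genes once pair 3 or pair 4 was left out (2424 and 2645 at an unadjusted p under 0.05), and 798 genes were called higher without pair 2. Without pair 1 it called 1047 genes higher and 723 lower, and without pairs 1 and 3 691 and 620. With Agilent's processed signals it called 812 and 395. The number moved with the tool as well: SAM, which the study's methods name for these arrays, called 3160 genes at an FDR of 0.1 and 1705 at 0.05, the methods' general t-test 978, and a paired test that shares no spread between genes 0 (2589 at an unadjusted p under 0.05). Of the called genes, 6 had a mean log2 ratio above 1 and 9 one below −1. Bright genes were called more often over 4 arrays. In the brightest of 4 equal groups by signal 14.9% were called higher and 8.28% lower, and in the dimmest 4.25% and 1.87%. The shares of all genes given beside the lists below are not matched for signal. The median over all genes, which the normalization holds near 0, was 0.0196. The arrays differed in what they showed: across genes, the log2 ratios of pairs 1 and 2 had a correlation of −0.0162, those of the other combinations lay between 0.347 and 0.567, and genes are not independent replicates.

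The largest increases were those of genes with different roles, and a shared theme was not tested. Slc25a4, the ADP/ATP carrier of muscle mitochondria, had log2 ratios of 0.96, 1.00, 1.21 and 0.87 in pairs 1 to 4, close to each other on all arrays (mean 1.01, SE 0.0816, adjusted p = 0.0241; 0.0728 counted once). Mybpc1, the slow form of myosin binding protein C, stood at 2.18 in pair 1 and at 0.84, 0.95 and 0.89 in the others. Sdc4, a heparan sulfate proteoglycan of satellite cells and other cells, was at 1.52, 1.45 and 1.75 in pairs 1 to 3 and at 0.12 in pair 4. Adamts8, a secreted protease, was at 1.26, 1.25, 0.91 and 0.71. Tbx1, a transcription factor of the T-box family, was low in pair 2 (0.17), at 0.98 in pair 3 and higher in pairs 1 and 4. Inpp5j, a phosphoinositide phosphatase, had a mean of 0.96. All of these rose in both fits. Ppara, the nuclear receptor that drives fatty acid oxidation genes, ranged from 0.08 in pair 2 to 2.10 in pair 1 and did not pass counted once (adjusted p = 0.0982 over 4 arrays and 0.105 counted once).

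Among the largest decreases, Mybph, a myosin binding protein, was at −1.96, −0.66, −1.13 and −1.39 and fell in both fits (mean −1.28, SE 0.186, adjusted p = 0.0287; 0.0774 counted once). Col6a2, a chain of collagen VI, was at −0.80, −0.91, −1.89 and −1.08, lowest in pair 3. Cd74, the invariant chain of antigen presentation, was also lowest in pair 3 (−2.09) and between −0.91 and −0.61 elsewhere. Grn (progranulin), Tmsb10 (an actin-binding thymosin) and Gpx3 (a secreted glutathione peroxidase) fell with means of −1.08, −1.07 and −0.94. Tnnt2, the cardiac and embryonic troponin T, was at −2.14 and −2.52 in pairs 1 and 3 and at −0.14 and −0.36 in pairs 2 and 4. It did not pass counted once (adjusted p = 0.122), and neither did Apoe (0.136), the apolipoprotein, or Mmp14 (0.126), a membrane collagenase.

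Genes of the smallest p values are by that choice even between arrays. Map1lc3a, which encodes an LC3 protein of autophagosomes, was at −0.69, −0.78, −0.65 and −0.80. Elp5, a subunit of the Elongator complex that modifies transfer RNA, was at 0.65, 0.78, 0.80 and 0.77. Bcl2l1, which encodes an inhibitor of cell death, had a mean of 0.73 from its brightest probe and of −0.12 from its other probe. Vax2 and Zfp133-ps had means of 0.85 and 0.73. Each of these passed in both fits. Rem1, a small GTPase that restrains calcium channels, passed as well, but its WT channel was above background on 1 of the 4 arrays only, so the size of its change is not given.

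**Figure D2:**
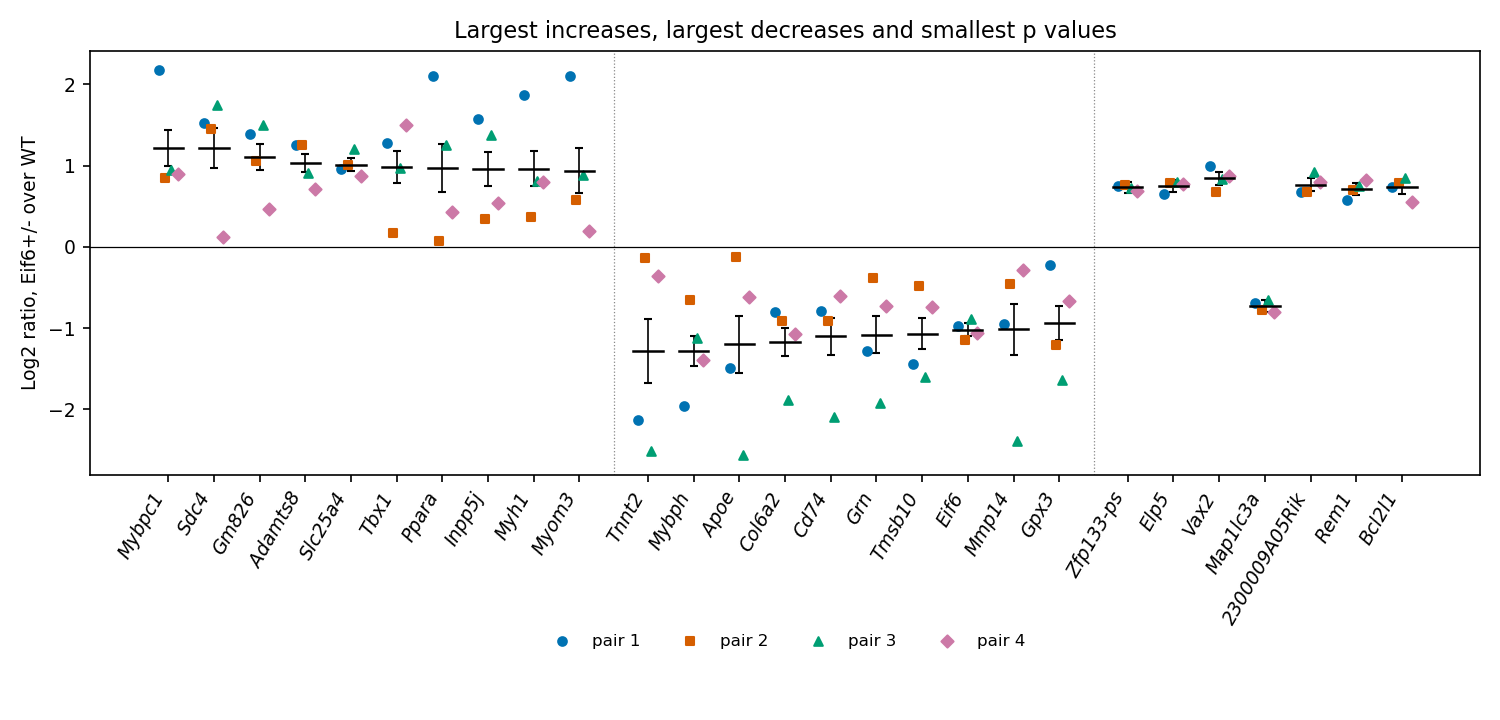
Log2 ratio of Eif6+/- over WT (y axis) in each gastrocnemius pair for the 10 largest increases, the 10 largest decreases and the genes of smallest p value not already shown. Symbols are pairs, bars the mean over 4 arrays and whiskers its limma standard error, which takes the 4 ratios as independent. Pairs 1 and 3 lie at −2.14 and −2.52 for Tnnt2 and pairs 2 and 4 at −0.14 and −0.36, while the 4 pairs of Slc25a4 lie between 0.87 and 1.21.

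Macrophage genes differed between the WT channels. The summed signal of 24 macrophage and antigen presentation genes was 34730, 16280, 46240 and 15530 in the WT channels of pairs 1 to 4 and 15320, 17380, 15210 and 15060 in the Eif6+/- channels, with Csf1r as the brightest gene. The WT channels of pairs 1 and 3 thus stood apart, while the other 6 channels lay close together. The median log2 ratio of the list was −1.30 and −1.61 in pairs 1 and 3 and 0.12 and 0.01 in pairs 2 and 4. Over 4 arrays 0 of its 24 members were called higher by limma and 3 lower (Cd74, Cd14 and C1qc; 12.5%, beside 5.53% of all genes), and counted once only Cd74 fell (2.8% of all genes); the median over the list was −0.67. Leaving out pair 1 gave 1 member called lower, and leaving out pair 2 gave 8. Without pairs 1 and 3 the median was 0.07, with 3 members called higher and 1 lower. Lgals3, a member of this list chosen after its values were seen, was its lowest in pairs 1 and 3, with WT log2 signals of 11.91, 8.80, 12.08 and 8.95. Of the neutrophil markers, 4 of 13 could be tested and none passed in either fit, and Ngp, Mmp8 and Cxcr2 were not above background. Fewer cells of a type and less RNA of that type per cell cannot be told apart in whole muscle.

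Connective tissue genes followed the same arrays in part. Their summed signal was 372200, 236600, 529800 and 298700 in the WT channels and 335800, 276200, 263000 and 339800 in the Eif6+/- channels, highest in the WT channel of pair 3, with Sparc the brightest. Of 31 tested, 0 were called higher and 12 lower over 4 arrays, and 7 fell counted once (Col4a1, Col4a2, Col5a3, Col6a2, Col6a3, Loxl1 and Islr), beside 5.53% and 2.8% of all genes. The chains of basement membrane collagen IV were lower on every array: Col4a1 was at −0.32, −0.62, −0.61 and −0.85, and Col4a2 at −0.35, −0.61, −0.54 and −0.71. Col5a3 was at −0.68, −0.39, −0.74 and −0.65. These 3 were low in every pair, unlike Postn (periostin, chosen after its values were seen), whose log2 ratio was −3.61 and −4.88 in pairs 1 and 3, 0.40 in pair 2 and −0.08 in pair 4 (adjusted p = 0.176). The median over the list was −0.50 and moved to −0.08 without pairs 1 and 3, with 1 member called higher and 8 lower. Whether the macrophage signal had a part in this result was not tested. No tendon gene of 12 passed in either fit; their median was 0.09 and turned to −0.03 counted once.

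The embryonic myosin gene Myh3 split the arrays in the same way, with WT log2 signals of 11.28, 6.91, 11.67 and 7.90 and Eif6+/- signals of 8.33, 6.87, 8.43 and 8.09. Its WT channels of pairs 1 and 3 stood above all other channels, and it did not pass (mean log2 ratio −1.51, adjusted p = 0.162). Of 13 developmental and cardiac sarcomere genes, 1 rose and 1 fell in both fits, namely Myh8, the perinatal myosin (0.46 by its brightest probe), and Mybph. The Myh8 probe that rose had a mean log2 signal of 17.17. Its other probe had one of 13.85, gave −0.14 and did not pass. Whether the brighter probe reads perinatal myosin alone was not tested, so the direction of Myh8 is not settled. Among 25 myogenic factors and satellite cell genes, 6 were called higher and 3 lower over 4 arrays (24% and 12%, beside 9.86% and 5.53% of all genes), and 2 rose and 3 fell counted once (4.46% and 2.8% of all genes). Those that rose were Sdc4 and Eya1, a cofactor in muscle gene control (0.82, 0.39, 0.38 and 0.74). Those that fell were Dag1, which encodes dystroglycan (−0.57), Sdc3 (−0.42) and Mef2d (−0.43).

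**Figure D3:**
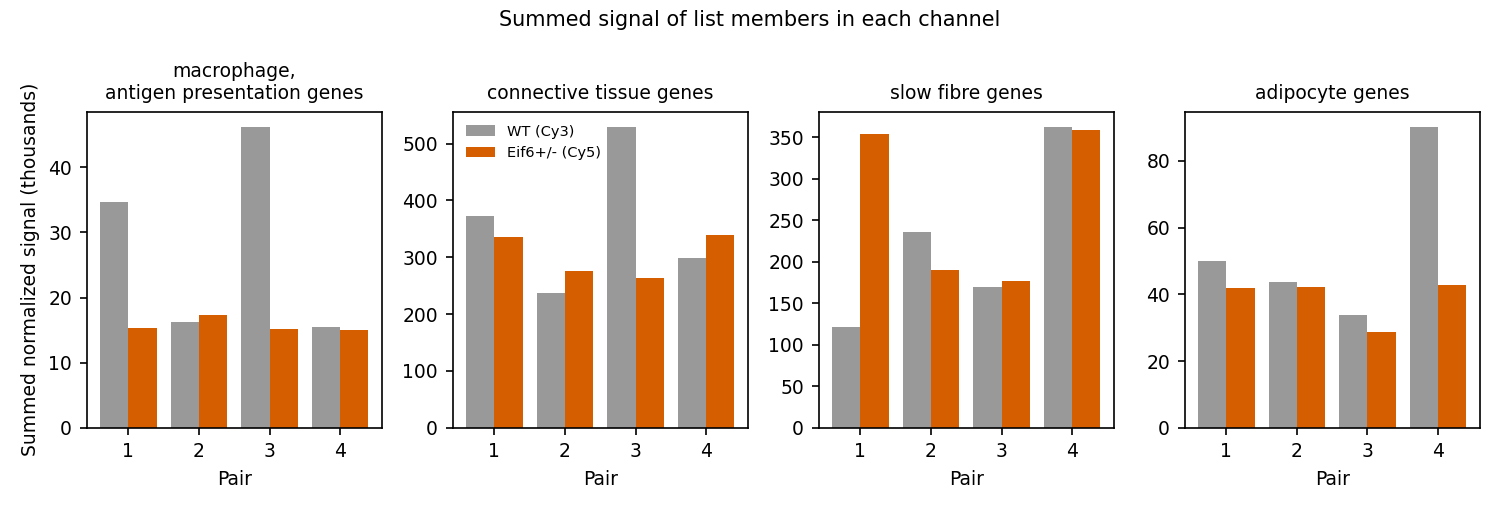
Summed normalized signal (y axis) of the tested members of 4 gene lists in the WT (grey) and Eif6+/- (orange) channel of each gastrocnemius pair (x axis). Macrophage and antigen presentation genes are highest in the WT channels of pairs 1 and 3 (34730 and 46240), slow fibre genes lowest in the WT channel of pair 1 (121700) and adipocyte genes highest in the WT channel of pair 4 (90270).

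Fat and vessel markers had their own patterns. The summed signal of 14 adipocyte genes was 90270 in the WT channel of pair 4 and between 28850 and 50090 in the other 7 channels. Over 4 arrays 3 of them were called lower (Cebpa, Cfd and Adipoq; 21.4%, beside 5.53% of all genes), and counted once (2.8% of all genes) only Cebpa, a transcription factor of fat cells, fell (−0.30, −0.61, −0.92 and −1.17). The median of the list was −0.22 and was near 0 without pair 4. The brown fat gene Ucp1 was not above background. Of 21 endothelial genes, 4 fell in both fits (19%, beside 5.53% of all genes over 4 arrays and 2.8% counted once): Eng, Aplnr, Cldn5 and Tie1. None were called higher by limma. Aplnr, the apelin receptor, was at −0.37, −0.89, −0.84 and −0.73, and Cldn5, a tight junction protein, at −0.67, −1.06, −0.43 and −0.37. The other 17 did not pass, and the median over the list was −0.04, ranging from −0.15 without pair 1 to −0.02 without pair 2, and −0.13 counted once. Among 12 mural cell genes, 1 was called higher and 3 lower over 4 arrays (8.33% and 25%, beside 9.86% and 5.53% of all genes). Pdgfrb (−0.43) and Des (−0.68) fell, the latter also a gene of the muscle fibre itself, and Mcam rose (0.51; −0.13 from its other probe). Of 13 Schwann cell genes 1, Cnp, was called over 4 arrays and none counted once, and the neurofilament genes Nefl, Nefm and Nefh were not above background. Of 8 red blood cell genes none passed over 4 arrays, and Hbb-bs passed counted once (adjusted p = 0.105 and 0.0960).

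Slow fibre genes separated pair 1 from the rest. Their summed signal was 121700 in the WT channel of pair 1 and 353600 in its Eif6+/- channel, whereas the channels of the other pairs were closer to each other (236600 and 189700 in pair 2, 169600 and 177400 in pair 3, 363100 and 359500 in pair 4, WT first). Myh7, the slow myosin heavy chain and chosen after its values were seen, had a WT log2 signal of 9.67 in pair 1 and of 13.03, 12.83 and 14.96 in the others, and its log2 ratios were 5.01, −1.81, −0.26 and −0.34. The median log2 ratio of 22 slow fibre genes was 1.98 in pair 1 and −0.43, −0.15 and −0.08 in pairs 2 to 4. The median over the list was 0.25 over 4 arrays, −0.02 counted once and −0.28 without pair 1, so the direction turned with the treatment of that array. In both fits 2 members rose, Mybpc1 and Myom3, and 0 were called lower (9.09% higher over 4 arrays, near the 9.86% of all genes); without pair 1 limma called 4 members lower.

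Fast fibre genes moved in both directions. Of 24, 1 was called higher and 5 lower over 4 arrays (4.17% and 20.8%, beside 9.86% and 5.53% of all genes), and 1 rose and 4 fell in both fits. The balance depended on the scaling and on single arrays: with loess alone 6 were called higher and 1 lower, without pair 2 the numbers were 2 and 0, and the median of −0.11 turned positive under 2 of the other scalings. Myh1, the myosin of IIX fibres, rose (1.87, 0.36, 0.81 and 0.80), while Casq1, the calcium store of the sarcoplasmic reticulum (−0.15, −0.73, −0.50 and −0.39), Actn3 (−0.36), Ckm, the creatine kinase of muscle (−0.37), and Atp2a1, the fast calcium pump, fell. Atp2a1 was near 0 in pair 1 (0.03) and at −1.27, −1.05 and −0.60 in the others. Myh2, the myosin of IIA fibres, stood at 3.92 in pair 1 and at 0.52, 1.41 and 0.62 in the others; it passed counted once (adjusted p = 0.0806) but not over 4 arrays (0.104).

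Of 35 genes of calcium release and handling, 2 were called higher and 6 lower over 4 arrays (5.71% and 17.1%, beside 9.86% and 5.53% of all genes), and 1 and 6 passed counted once, beside 4.46% and 2.8% of all genes. The 1 that was higher in both was Rem1, with its WT channel near background, and 27 did not pass over 4 arrays. Subunits of the voltage-gated calcium channel of the transverse tubule were among those that fell: Cacng1 was at −0.59, −0.72, −0.78 and −0.43, Cacnb1 at −0.36, −0.79, −0.58 and −0.46, and Cacna2d1 had a mean of −0.35. Each was negative on all arrays. Fkbp1a, which binds the ryanodine receptor, was at −0.68, −0.37, −0.35 and −0.61 by its brightest probe and had a mean of −0.07 by its other probe, and Sypl2 (mitsugumin 29) had a mean of −0.47. Jph2, a junctophilin that holds the tubule to the sarcoplasmic reticulum, was near 0 in pair 1 (−0.03) and at −1.30, −0.95 and −0.84 in the others. Ryr1 itself did not pass (−0.42, adjusted p = 0.174) nor did Cacna1s (0.26, adjusted p = 0.276). The median over the list was −0.10 over 4 arrays and −0.01 counted once. Of 23 synapse and denervation genes, 1 was called higher and 4 lower over 4 arrays (4.35% and 17.4%, beside 9.86% and 5.53% of all genes), and 2 were lower without pair 2. Counted once 3 fell: Ache, the acetylcholinesterase (−0.75, −0.70, −0.78 and −0.49), Scn4a, the sodium channel of muscle (−0.45), and Pdlim7 (−0.41; −0.06 and 0.04 from its other probes). Agrn passed over 4 arrays only (0.29, adjusted p = 0.0694; 0.112 counted once).

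Glycogen and glycolysis genes moved in both directions, and most did not pass. Of 36, 5 were called higher and 7 lower over 4 arrays (13.9% and 19.4%, beside 9.86% and 5.53% of all genes). In the brightest of 4 equal groups of all genes the shares were 14.9% and 8.28%. Counted once 4 rose and 5 fell (4.46% and 2.8% of all genes). The median of the list was −0.01, turned positive under 2 of the other scalings and was 0.04 counted once. Gbe1, the glycogen branching enzyme, rose (1.02, 0.95, 0.70 and 0.62), as did Gyg, the glycogenin that primes glycogen (0.62, 0.39, 0.56 and 0.46). Gys1, the glycogen synthase (−0.06, adjusted p = 0.772), and Ugp2, which makes UDP-glucose (0.05, adjusted p = 0.804), did not pass. Pygm, the phosphorylase that breaks glycogen down, was at −0.29, −0.72, −0.37 and −0.35, and Ppp1r3a, a glycogen-targeting subunit of protein phosphatase, at −0.30, −0.64, −0.50 and −0.32. Both fell. In glycolysis Ldha rose (0.47), and Aldoa was called higher, but it lay at the same top value of the normalized scale in all 4 Eif6+/- channels (17.63), so the size of its change is not given. By contrast, Pkm (−0.50), Tpi1 (−0.44) and Pfkl (−0.53) fell. Gapdh passed over 4 arrays only (−0.35, adjusted p = 0.0438; 0.102 counted once).

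Of 19 clock genes, 6 were called higher and 3 lower over 4 arrays, and 3 rose and 1 fell counted once, beside 9.86% and 5.53%, and 4.46% and 2.8%, of all genes. Nfil3, a repressor of the clock output, was at 0.61, 0.34, 0.63 and 0.57. Tef, an activator of the clock output, was low in pair 1 (0.07) and at 0.53, 0.41 and 0.42 in the others. Nr1d1, the nuclear receptor that represses Arntl, was also near 0 in pair 1 (−0.09) and at −1.62, −0.68 and −0.84 in the others. Csnk1d, the kinase of the period proteins, rose by its brightest probe (0.51), and its other probe was called over 4 arrays the other way (−0.43), so its direction is not settled. Cry2, Per1, Ciart, Bhlhe40 and Bhlhe41 passed over 4 arrays only, with counted-once adjusted p values of 0.112, 0.112, 0.121, 0.103 and 0.105. Arntl did not pass (−0.08, adjusted p = 0.706). The time of day at which muscles were taken is not given in the sources used here.

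Promoters were read for the clock genes, which act on each other through E-boxes, and the motif was chosen after the values were seen. A window of 300 bases that spans the start site (RefSeq, GRCm38.p6) was given for 15 of the 19 genes. The E-box CACGTG, its own reverse complement, so that one search covers both strands, was present in 4 of these promoters, those of Bhlhe41, Tef, Per1 and Ciart, and in 2349 of 32851 mouse promoters (7.15%). All 4 were among the 7 genes called over 4 arrays for which a promoter was given, but only Tef rose in both fits. The promoters of Tef (chr15:81802423-81802722, plus strand) and Ciart (chr3:95882179-95882478, minus strand), which held 1 and 3 E-boxes, are shown 5′ to 3′ with the motif in capitals. A match is a description, not a site or a cause.
Tef: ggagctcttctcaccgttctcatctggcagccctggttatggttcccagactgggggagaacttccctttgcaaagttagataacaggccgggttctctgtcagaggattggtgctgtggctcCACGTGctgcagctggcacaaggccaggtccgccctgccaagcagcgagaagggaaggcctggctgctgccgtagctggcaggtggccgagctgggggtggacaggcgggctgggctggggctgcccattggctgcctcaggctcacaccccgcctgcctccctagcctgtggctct
Ciart: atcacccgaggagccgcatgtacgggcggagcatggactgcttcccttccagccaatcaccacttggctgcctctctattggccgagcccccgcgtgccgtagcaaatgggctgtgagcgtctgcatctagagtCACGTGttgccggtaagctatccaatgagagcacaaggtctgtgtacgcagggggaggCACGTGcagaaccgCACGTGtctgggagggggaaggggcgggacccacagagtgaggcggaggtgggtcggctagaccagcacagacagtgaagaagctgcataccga

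**Figure D4:**
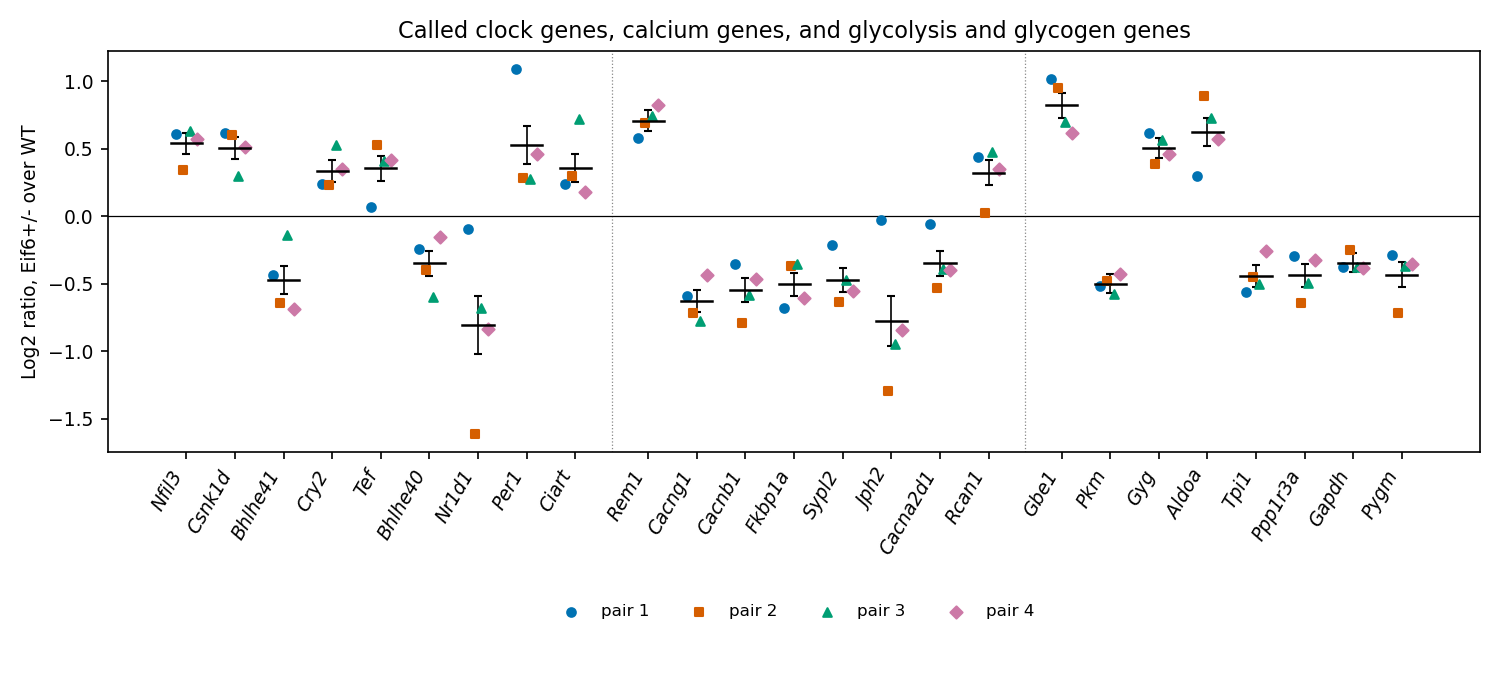
Log2 ratio of Eif6+/- over WT (y axis) in each gastrocnemius pair for the clock genes, calcium genes and first 8 glycolysis and glycogen genes by p value that were called over 4 arrays. Symbols are pairs, bars the mean and whiskers the limma standard error over 4 arrays. Gbe1 and Gyg lie above 0 and Pkm and Pygm below 0 in every pair, while Nr1d1 and Jph2 are near 0 in pair 1.

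Mitochondrial lists were highest in pairs 1 and 3, the arrays whose WT channels also held the most macrophage signal and Myh3. Slow fibre genes were high in pair 1 too, with a median of 1.98. Whether these move together for one reason was not tested. Of 75 respiratory chain and ATP synthase genes, 32 were called higher and 0 lower over 4 arrays and 17 rose counted once, beside 9.86% and 4.46% of all genes. The median over the list was 0.33, 0.17, 0.43 and 0.13 in pairs 1 to 4. Over the 4 arrays it was 0.26, beside 0.0196 over all genes, and without pairs 1 and 3 it was 0.15. In that fit 8 members were called higher, beside 691 of all 12615 genes. With Agilent's processed signals 10 members were called higher, beside 812 of all genes. Without pair 1 alone the number was 19, beside 1047 of all genes. Uqcrq of complex III was at 0.69, 0.53, 0.72 and 0.44, and Atp5g3 of the ATP synthase at 0.86, 0.62, 0.92 and 0.36. In the tricarboxylic acid cycle and pyruvate entry, 10 of 37 were called higher and 1 lower over 4 arrays (27% and 2.7%, beside 9.86% and 5.53% of all genes). Counted once 7 rose and 1 fell, beside 4.46% and 2.8% of all genes. The median of this list was 0.13 and turned to −0.02 without pairs 1 and 3, with 3 members called higher and 3 lower. Mdh1, the cytosolic malate dehydrogenase, was at 1.29, 0.67, 1.12 and 0.62, and Mpc1, a subunit of the pyruvate carrier, at 0.83, 0.38, 0.87 and 0.46 (0.18 from its other probe). Pcx, which makes oxaloacetate from pyruvate, was even between pairs and fell (−0.31, −0.33, −0.40 and −0.43). Of 33 mitochondrial carriers, 7 were called higher over 4 arrays (21.2%, beside 9.86% of all genes). Counted once 3 rose (Slc25a4, the phosphate carrier Slc25a3 and Slc25a46), beside 4.46% of all genes, and Slc25a1 was also called lower. Their median of 0.10 turned to −0.01 without pairs 1 and 3, with 3 called higher and 4 lower. Of 32 biogenesis and dynamics genes, 10 were called higher over 4 arrays and 5 rose counted once (31.2% over 4 arrays, beside 9.86% and 4.46% of all genes). Without pairs 1 and 3 the median of this list went from 0.13 to 0.03, with 5 called higher and 1 lower, and Agilent's processed signals gave 3 higher. The 5 were Sirt3, the deacetylase (0.60), Dnm1l, the fission GTPase (0.47), Polg2 (0.44), Tfb1m (0.37) and Tfb2m (0.41). Ppargc1a, the coactivator of this programme, did not pass counted once (0.33, adjusted p = 0.0530; 0.114 counted once). In fatty acid use, 6 of 38 were called higher and 1 lower over 4 arrays (15.8% and 2.63%, beside 9.86% and 5.53% of all genes). Counted once 3 of these rose and 1 fell. Acot13 (0.52) and Acsl3 (0.54) rose and Ucp2 (−0.64) fell. The median of this list was 0.46 and 0.36 in pairs 1 and 3 and −0.20 and −0.12 in pairs 2 and 4. Without pairs 1 and 3 limma called 8 members lower. Without pair 1 alone the median went from 0.14 to 0.02, with 3 called higher and 4 lower. That of the tricarboxylic acid list went from 0.13 to 0.06, with 6 called higher and 1 lower.

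**Figure D5:**
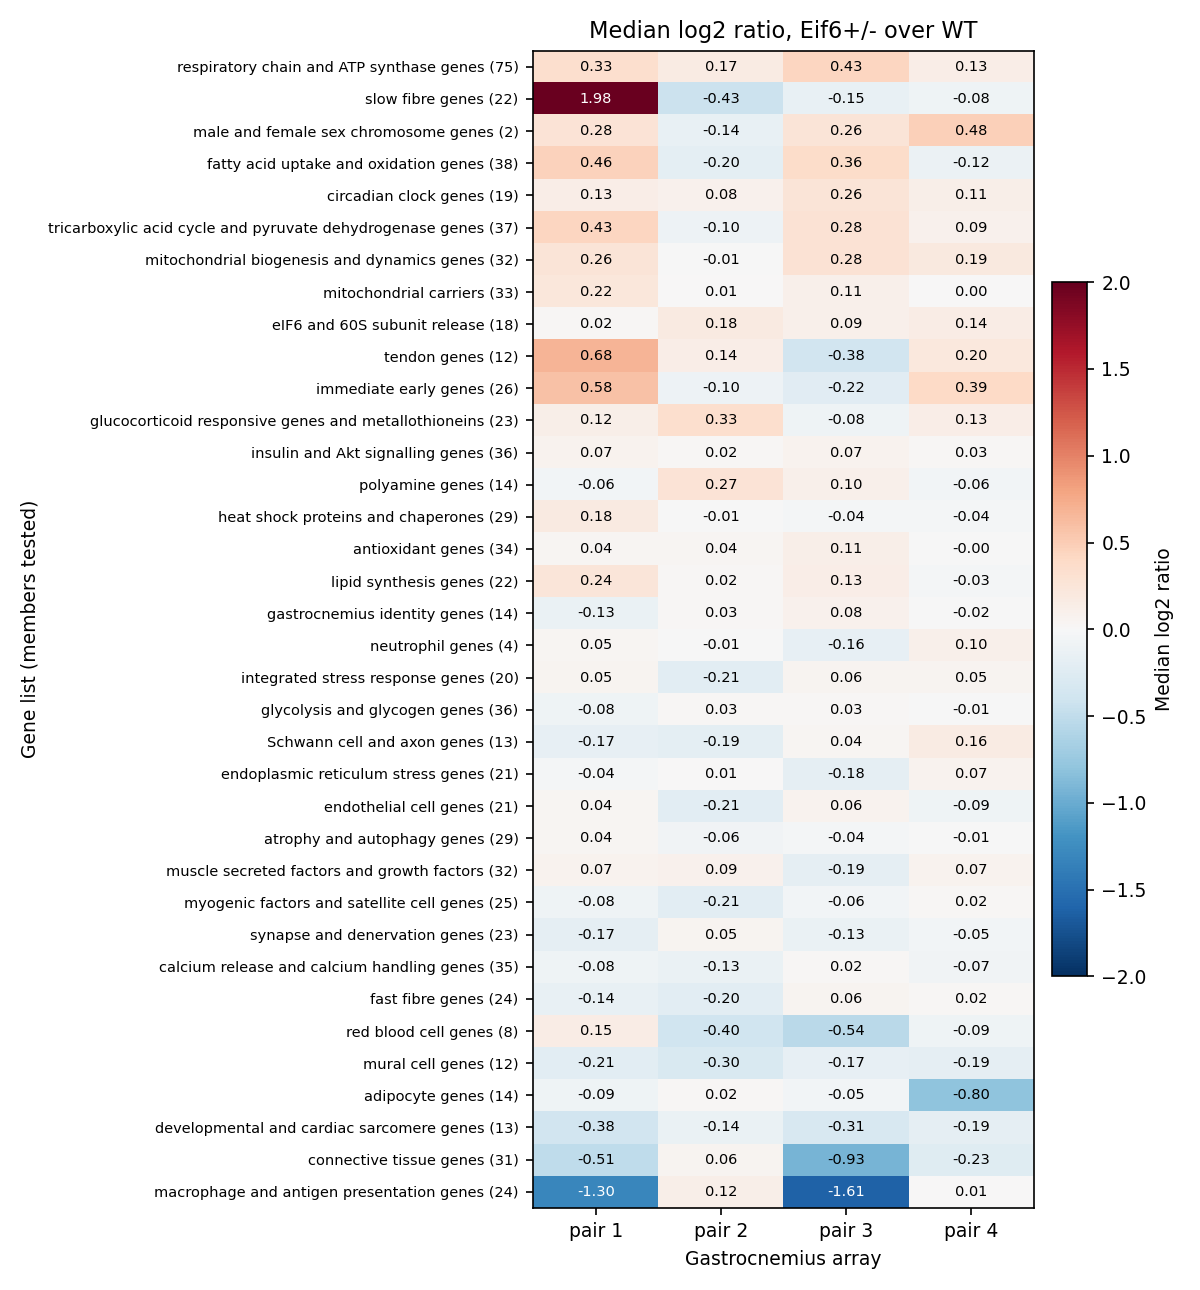
Median log2 ratio of Eif6+/- over WT of the tested members of 36 gene lists (rows, number tested in brackets) in each gastrocnemius pair (columns), coloured from blue (lower) to red (higher) and ordered by the median over the 4 arrays. The slow fibre median is 1.98 in pair 1 and below 0 in pairs 2 to 4, and the macrophage median is −1.30 and −1.61 in pairs 1 and 3 and 0.12 and 0.01 in pairs 2 and 4.

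In insulin and Akt signalling, 6 of 36 genes were called higher and 4 lower over 4 arrays (16.7% and 11.1%, beside 9.86% and 5.53% of all genes), and 5 rose and 1 fell counted once (4.46% and 2.8% of all genes). Those that rose were Grb14, an adaptor that inhibits the insulin receptor (1.44, 0.38, 1.03 and 0.73), Rheb and Rptor, which act in the mTORC1 pathway (0.47 and 0.43), Pdpk1 (0.39) and Tbc1d1. The last encodes a Rab GTPase-activating protein in the control of glucose uptake (0.79, and −0.01 from its other probe). Prkag3, the AMPK subunit of fast muscle, fell (−0.53). Of 26 immediate early genes 5 were called higher and 1 lower over 4 arrays (19.2% and 3.85%, beside 9.86% and 5.53% of all genes). Counted once limma called 0 of them. Their median was 0.58 and 0.39 in pairs 1 and 4 and −0.10 and −0.22 in pairs 2 and 3, so the higher values lay on the arrays with alike Eif6+/- channels. Of 23 glucocorticoid responsive and metallothionein genes 6 were called higher over 4 arrays (26.1%, beside 9.86% of all genes). Without pair 2 the number was 3 (with 1 lower), and with Agilent's processed signals it was 2. Some were far below 0 on part of the arrays without passing, and 3 of these were chosen after their values were seen. Mt2 was at −1.705, 0.92, −2.65 and 0.76 in pairs 1 to 4. Angptl4 was low in pairs 1 and 3. Its log2 ratio was −1.95 in pair 1, and in pair 3 its log2 signals were 8.7 (Eif6+/-) and 11.32 (WT). Pdk4 was at −1.63 in pair 4. Counted once 3 rose, Klf15 (0.62), Cebpb (0.53) and Sgk1 (0.59), beside 4.46% of all genes.

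In the endoplasmic reticulum, the chaperones Calr (−0.33, −0.71, −0.95 and −0.49) and Hsp90b1 (−0.45) fell. Of the 21 genes of this list limma called 1 higher and 4 lower over 4 arrays (4.76% and 19%, beside 9.86% and 5.53% of all genes). Counted once it called 0 and 2, beside 4.46% and 2.8% of all genes. Of 29 heat shock genes 5 were called higher and 2 lower (17.2% and 6.9%, beside 9.86% and 5.53% of all genes), and 2 rose and 2 fell counted once, beside 4.46% and 2.8% of all genes. The mitochondrial partners Hspd1 (0.46) and Hspe1 (0.35) rose, and Hspb8 (−0.65) and Stip1 (−0.40) fell. In the integrated stress response, Atf4, its main transcription factor, was at 0.44, 0.49, 0.61 and 0.50 by its brightest probe and had a mean of 0.04 by its other probe. Psph of serine synthesis also rose (0.49, and 0.01 from its other probe), while Phgdh of the same pathway (−0.53) and Slc3a2 (−0.38) fell. Of this list 3 of 20 were called higher and 2 lower over 4 arrays (15% and 10%, beside 9.86% and 5.53% of all genes). Counted once the numbers were 2 and 2, beside 4.46% and 2.8% of all genes. In autophagy and atrophy, Ulk1 rose (0.41) and Map1lc3a, Tfeb (−0.56) and Gabarap (−0.39) fell, of 29 genes.

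Among 18 genes that act with eIF6 or on 60S release, Eif6 was the one that passed counted once. Over 4 arrays Gnl2, Rpl23, Gtpbp4 and Efl1 were called higher as well (22.2%, beside 9.86% of all genes), but limma called 0 of the list higher without pair 2 and 1 with Agilent's processed signals. Gnl2, a nucleolar GTPase of 60S assembly, was even between pairs (0.32, 0.25, 0.29 and 0.25; adjusted p = 0.0615 and, counted once, 0.128). Rpl23, the ribosomal protein at which eIF6 binds, was at 0.36 by its brightest probe and at 0.03 and −0.01 by its other probes. Among secreted and growth factors, Adamts8 and Angpt1 (0.55) rose and Tgfb1 (−0.46), Igf2 (−0.56) and Igfbp4 (−0.88) fell, of 32 tested with 4 called higher and 3 lower over 4 arrays (12.5% and 9.38%, beside 9.86% and 5.53% of all genes). Of 34 antioxidant genes 6 were called higher and 2 lower over 4 arrays (17.6% and 5.88%, beside 9.86% and 5.53% of all genes), with 1 higher by Agilent's processed signals. Counted once 2 rose and 1 fell (4.46% and 2.8% of all genes), the latter Gpx3. None of 14 polyamine genes passed in either fit, and of 22 lipid synthesis genes Mlxipl, the carbohydrate response factor, rose in both (0.60; 0.21 from its other probe).

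Set against TA, 0 of 12206 genes differed in their log2 ratio between the muscles at an adjusted p under 0.1 (0%, limma; 995 at an unadjusted p under 0.05), and with pairs 1 and 4 averaged in each muscle the number was 0 again (755 unadjusted). With Agilent's processed signals 1 gene differed. A p that misses the threshold does not show that the muscles were alike.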

How the data were processed

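Per the labels, Eif6+/- RNA carried Cy5 and WT RNA Cy3; the study's methods name labelling with Cy3 alone, and the labels were followed. The authors deposited unnormalized spot intensity values (Feature Extraction 10.5.1.1) and a table of log2 ratio values, which matched loess of uncorrected intensity (r from 0.999963 to 0.999996; column medians from −0.00441 to 0.00375), so its log2 scale, centring and direction are known; it served as an alternative.

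Median intensities were corrected with normexp (offset 50), normalized by loess within arrays and by quantiles over 16 channels. Control and outlier spots were left out and spots of a probe averaged. A probe was kept where each gastrocnemius array had it well above background in one or both channels (23802 of 55681; 38.7% to 47.7% were above background per channel). RefSeq accessions named 27235 of 28685 probes (GRCm38.p6), and a gene was given by its brightest probe. Log2 ratios were tested against 0 with limma 3.58.1 in R 4.3.3 (lmFit, eBayes, Benjamini-Hochberg over kept probes, threshold 0.1); figures used matplotlib 3.10.9. All tests were two-sided and the code was tested on simulated data. The number of arrays limits the precision.

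The design was kept as 4 ratios per muscle, although the Eif6+/- channels of pairs 1 and 4 proved alike; their p-values take the ratios as independent. The counted-once fit, the fits with 3 Eif6+/- against 4 WT channels, a paired test without shared spread, a Welch test, SAM at an FDR of 0.05, the methods' t-test at 0.05 and the fit without pairs 1 and 3 were chosen after seeing the data.

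An item withheld for evaluation is not reported here. Members and lists were chosen with earlier results of these data known. Genes named are Eif6, the 10 highest and 10 lowest means of called genes whose sign was shared by the 4 arrays, the 10 smallest p values, the 4 smallest p values of each list, and members that spell out a count of 5 or fewer; other genes were chosen after their values were seen, and these include Ryr1, Cacna1s, Gys1, Ugp2, Arntl, Ppargc1a, Cep250, Ergic3 and further list members that passed in both fits.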

Additional observations from a re-analysis of the deposited data

Results flagged for a closer look

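Some genes and lists had 1 pair far from the other 3. Mybpc1 was at 2.18 in pair 1. In pair 3, Gtpbp4 was at 0.46, Car3 at −0.98, Lcn2 at −0.66 and Acta2 at −0.93. The median log2 ratio of the slow fibre genes was 1.98 and that of the heat shock proteins 0.18 in pair 1, that of the integrated stress response genes −0.21 in pair 2, that of the secreted factors −0.19 in pair 3 and that of the adipocyte genes −0.80 in pair 4. These were 5 of 151 genes and 5 of 36 lists. Chance alone gives about 1 in 20 for 4 independent values that were not selected. That rate does not apply here, as many of the genes were chosen by small p values and pairs 1 and 4 had alike Eif6+/- channels. The counts are thus a description only. For the slow fibre genes the WT channel of pair 1 was the low one (121700), and for the adipocyte genes the WT channel of pair 4 the high one (90270). The causes were not tested.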

How the results depend on the processing

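The number of genes called was the result that moved most; the cause was not tested. Over 4 arrays limma called 1941 genes, 1244 higher and 697 lower. With 1 array left out the numbers ranged from 0 to 1770, 0 to 1047 and 0 to 723, and the log2 ratio of Eif6 from −1.06 to −0.97. Agilent's processed signals gave 1207 (812 higher, 395 lower), SAM 3160 (2145 and 1015), the methods' general t-test 978 (736 and 242; 3053 unadjusted) and an adjusted p under 0.05 628 (433 and 195). Alternatives chosen after seeing the data gave 916 with pairs 1 and 4 averaged (563 and 353), 517 with limma on 3 Eif6+/- against 4 WT channels (395 and 122), 133 with the methods' t-test on these (1.1e2 higher, rounded, and 28 lower), 233 with the methods' t-test at 0.05 (187 and 46), 191 with a Welch test (158 and 33), and 0 with a paired test without shared spread (0 and 0; 2589 unadjusted), where the Eif6 log2 ratio of −1.02 had an adjusted p of 0.122. SAM at an FDR of 0.05, the level of the study's methods, called 1705 (1255 and 450), and without pairs 1 and 3, which leaves 2 arrays, 1311 were called (691 and 620), nearly even in direction. A correlation between the arrays of pairs 1 and 4 could not be fitted.

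Without the pair (no replicate block) 1720 genes were called, and with a replicate block across the muscles 0 genes differed between them (838 unadjusted). Gastrocnemius and TA arrays of the same number deviated together no more than others (r from −0.356 to 0.0896, against −0.311 to 0.299), so these ratios did not show whether the number names the same mice in both muscles. Agilent's processed signals gave 1 gene that differed. The median over probes turned Prdx6, an antioxidant gene, from 0.48 (its brightest probe) to −0.056. Its other probes gave −0.14 and −0.09. Of 124 named genes called, 123 kept one sign and 0 kept the call under all alternatives. By signal, 6.12% of genes were called among the dimmest of 4 equal groups and 23.2% among the brightest. Dye and genotype cannot be told apart in any of these fits, and fewer cells and less RNA per cell cannot in whole muscle.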

Other observations

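Probes of one gene often disagreed: of 3043 genes with more than 1 kept probe, 1265 had probes of both signs, and 10 had probes called in both directions over 4 arrays.

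Of the 1917 genes called in gastrocnemius over 4 arrays and measured in TA, 1042 had the same sign on all 8 arrays. The share over all genes was not counted. The dyes were placed alike on all 8 arrays, so a preference of a probe for one dye would also give one sign on all of them. By contrast, 10 of the 1917 had one sign on all gastrocnemius arrays and the opposite sign on all TA arrays. Among these 10 was Ppargc1a, higher in gastrocnemius (0.33) and lower in TA (−0.20). None of the 10 passed counted once, and the test of the difference between the muscles called none of them. These genes were chosen after their values were seen.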
